A study of Homo sapiens with 6 samples.

Results

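Chromatin accessibility was mapped by ATAC-seq in EndoC-βH3 cells, an established line of human beta-like cells that carries excisable immortalising transgenes, and the open regions of chromosome 20 are described here by arm and by place. ATAC-seq marks open DNA with a transposase that cuts accessible chromatin and leaves sequencing adapters there. The members were selected on their position: regions of the deposited table on chromosome 20 outside the pericentromere, in the coordinates of hg38. The last member of the p arm ended at position 25584598 and the first of the q arm began at 31503035. In this way 3036 of the 108542 regions of the table were chosen by the rule, or 2.80%. Of these, 1174 lay on the short (p) arm and 1862 on the long (q) arm. A region counted as a promoter region when it came within 2 kb of the start of any protein-coding transcript of GENCODE 44, and every other region was distal, which gave 569 promoter and 2467 distal regions.

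The series held 3 libraries of senescent and 3 of non-senescent cells, each from 100000 cells. The senescent group had received 4-hydroxytamoxifen for 3 weeks, which activates a Cre recombinase fused to the oestrogen receptor and removes hTERT and the SV40 large T antigen, and the non-senescent group kept both transgenes. All the cells were of a single line, derived from fetal human pancreas. The table holds 1 signal value per region, the authors' mean over the 6 libraries of normalised read counts, so that neither a value per library nor a spread between replicates can be given. Its remaining columns are the authors' own comparison of the groups and were not used, so no difference between senescent and non-senescent cells is reported. Regions are not replicates, and the comparisons below are therefore descriptions without a test. Chromosome 20 is placed among the 22 autosomes by rank.

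Chromosome 20 carries several genes that beta cells depend on. The transcription factors NKX2-2, FOXA2 and INSM1 on the p arm and HNF4A and MYT1 on the q arm act in endocrine differentiation or in the function of islet cells, and PCSK2 and CHGB encode a prohormone convertase and a protein of the secretory granule. A promoter is open where the transcription machinery assembles, and many distal open regions are enhancers, silencers or sites of the insulator protein CTCF, which accessibility alone does not tell apart. Promoters are mostly rich in CG dinucleotides and open in many cell types, whereas distal regions differ more from one cell type to another.

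The strongest distal regions of both arms differed widely in base composition. The 300 bases in the middle of 5 of them are printed below as the hg38 plus strand. Each is among the 5 distal regions of highest mean signal on its arm, and its middle overlaps no annotated exon. Capitals mark exact matches to any of 9 short motifs searched on both strands: AP-1 (TGANTCA), ETS (CCGGAAG), NRF1 (GCGCATGC), FOX (TGTTTAC), homeodomain (TAATTA), RFX (GTTGCCAT), E-box (CAGATGG), CTCF (AGGGGGCGC) and the CCAAT box. Of the p arm, the first lay upstream of NKX2-2, the second in an intron of RALGAPA2 and the third nearest to FOXA2.
chr20:21522098-21522397, near NKX2-2: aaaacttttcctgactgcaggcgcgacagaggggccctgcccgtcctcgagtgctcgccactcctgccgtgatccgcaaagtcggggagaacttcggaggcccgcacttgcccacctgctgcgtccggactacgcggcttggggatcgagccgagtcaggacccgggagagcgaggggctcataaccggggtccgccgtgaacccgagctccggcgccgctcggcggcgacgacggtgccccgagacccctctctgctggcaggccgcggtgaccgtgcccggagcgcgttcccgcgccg
chr20:20549001-20549300, in RALGAPA2: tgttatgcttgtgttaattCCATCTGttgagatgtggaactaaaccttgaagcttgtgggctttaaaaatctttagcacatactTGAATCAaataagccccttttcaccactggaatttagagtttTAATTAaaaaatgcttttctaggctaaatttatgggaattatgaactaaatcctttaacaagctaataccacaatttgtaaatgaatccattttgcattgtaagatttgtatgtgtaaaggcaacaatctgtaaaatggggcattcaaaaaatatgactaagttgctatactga
chr20:22490524-22490823, near FOXA2: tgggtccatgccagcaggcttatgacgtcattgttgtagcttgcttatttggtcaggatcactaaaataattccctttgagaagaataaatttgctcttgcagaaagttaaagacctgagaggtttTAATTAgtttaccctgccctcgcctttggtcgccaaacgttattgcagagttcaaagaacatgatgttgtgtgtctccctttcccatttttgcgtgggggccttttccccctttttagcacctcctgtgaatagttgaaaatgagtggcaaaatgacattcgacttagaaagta
Of the q arm, the first was intergenic and the strongest distal region of the chromosome, and the second lay nearest to EDN3.
chr20:40144710-40145009, intergenic: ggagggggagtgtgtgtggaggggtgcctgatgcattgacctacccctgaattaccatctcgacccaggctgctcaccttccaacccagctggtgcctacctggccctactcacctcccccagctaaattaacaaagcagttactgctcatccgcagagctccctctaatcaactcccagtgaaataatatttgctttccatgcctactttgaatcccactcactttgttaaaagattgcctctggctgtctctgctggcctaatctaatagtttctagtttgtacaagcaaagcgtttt
chr20:59365804-59366103, near EDN3: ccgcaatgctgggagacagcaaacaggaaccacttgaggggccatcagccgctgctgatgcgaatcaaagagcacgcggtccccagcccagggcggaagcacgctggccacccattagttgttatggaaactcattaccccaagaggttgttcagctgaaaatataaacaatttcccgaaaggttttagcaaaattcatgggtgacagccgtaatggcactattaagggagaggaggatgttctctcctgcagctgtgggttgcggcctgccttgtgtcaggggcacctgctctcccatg
The window near NKX2-2 had a GC content of 71.0% and held 40 CG dinucleotides but none of the motifs. The window in RALGAPA2 had a GC content of 31.3%, held no CG and matched the AP-1, homeodomain and E-box letters once each. A homeodomain match also stood in the window near FOXA2, at a GC content of 42.0%. Both windows printed for the q arm, at 49.0% and 53.7%, matched none of the 9 motifs. A match is a description of the letters, and the absence of one says nothing of the factor.

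The whole regions around these windows were among the strongest distal regions of all autosomes. The region near NKX2-2 (chr20:21520922-21523574, intergenic) had a mean signal of 4195 normalised reads, 6.86 kb from the nearest NKX2-2 start site. It overlapped the start site of a transcript outside the protein-coding class. The region in RALGAPA2 (chr20:20548596-20549705), a gene for a GTPase-activating protein of the Ral family, reached 4147. The region nearest to FOXA2 (chr20:22489934-22491413), at 93.2 kb, reached 4024. The highest distal value of the chromosome was 4480, at the 847 bp of chr20:40144437-40145283. The region nearest to the endothelin gene EDN3 (chr20:59365415-59366492) had 3461. All 5 stood above the 99.8th percentile of the distal regions of all autosomes. Other distal regions among the 5 strongest of each arm lay nearest to SIRPA (4017) and FOXA2 (3500) on the p arm and to TUBB1 (2980) and TP53INP2 (2812) on the q arm.

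Open regions lay densely on chromosome 20. There were 52.0 regions per Mb of sequenced bases, against 38.0 on the other 21 autosomes together, which ranked the chromosome 4 of 22. Distal regions reached 42.3 per Mb, the highest of the 22 autosomes, against 31.0 on the others. With its own pericentromere kept, as the other autosomes keep theirs, chromosome 20 had 43.1 distal regions per Mb and was again first. Promoter regions stood at 9.75 per Mb against 7.01, at rank 5. The 293 pericentromeric regions that were left out had a median mean signal of 15.2, against 115.9 for the members, whose values ran from 3.61 to 5724.

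The mean signal of chromosome 20 was close to that of the other autosomes at promoters and somewhat higher at distal regions. The median promoter signal was 523 normalised reads against 514, a ratio of 1.02 that ranked 10 of 22. The median distal signal was 89.5 against 77.0, a ratio of 1.16 that ranked 4 of 22. With the pericentromere kept, the distal ratio was 1.02. Both ratios lay within 1.5 SD of 1, where the SD is the spread of the same ratio over the other 21 autosomes, 0.147 at promoters and 0.149 at distal regions. Of the distal regions 4.66% had a signal over 1000, against 3.20% on the other autosomes with their pericentromeres.

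**Figure D1:**
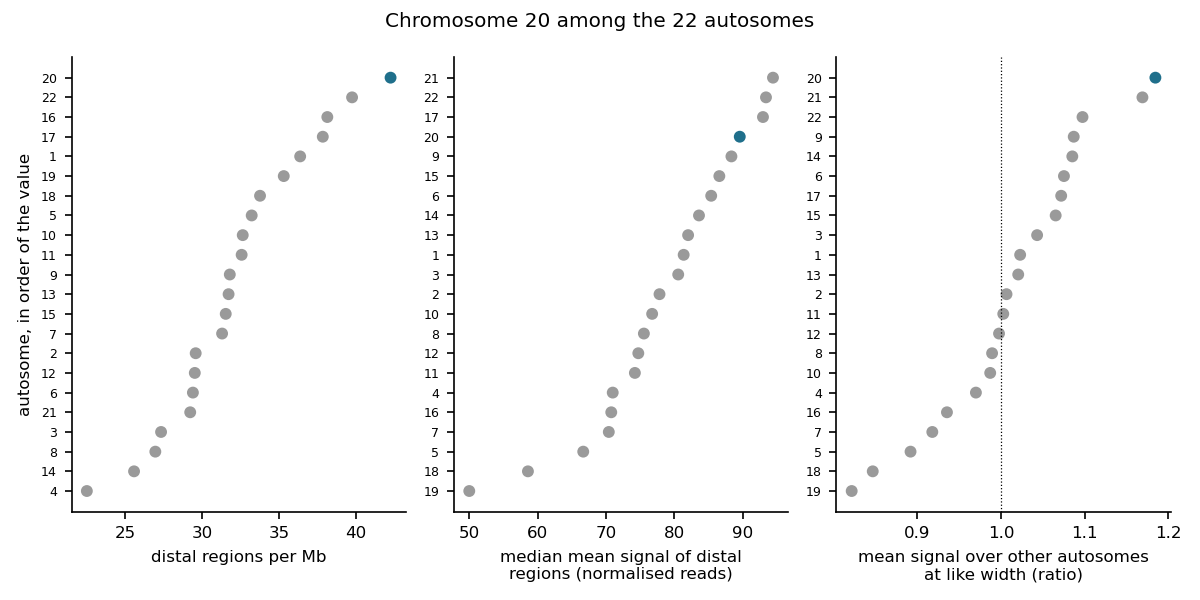
Each of the 22 autosomes is a point, ordered by its value, for distal regions per Mb (left), the median mean signal of distal regions in normalised reads (middle) and the mean signal over that of the other autosomes at like width (right, the dotted line marks a ratio of 1), with chromosome 20 in blue, without its pericentromere, which the other autosomes keep. Chromosome 20 was first for density (42.3 per Mb), 4 of 22 for distal signal (89.5) and first at like width (1.18).

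Regions of chromosome 20 were narrow for their signal. Chromosome 20 enters these comparisons without its pericentromere, while the other autosomes keep theirs. All regions were sorted into 20 bins of mean signal and compared within a bin and within promoter or distal place. At like mean signal the width on chromosome 20 was 588 bp against 617 bp, a difference of -29.2 bp that was the lowest of the 22 autosomes. With the pericentromere kept it was -20.1 bp, again the lowest. Distal regions were wider than those of the other autosomes in 1 of the 20 bins, and promoter regions in 1 of the 9 bins that held at least 20 of them. Read the other way round, at like width (20 bins, again within place) the signal of chromosome 20 was 1.18 times that of the other autosomes, the highest of the 22, followed by chromosome 21 with 1.17 and chromosome 22 with 1.10, and the lowest was chromosome 19 with 0.82. The SD of this ratio over the other 21 autosomes was 0.0865. First place depended on leaving out the pericentromere: with it kept, chromosome 20 stood at 1.10, at rank 3, and chromosome 21 was first with 1.17. This comparison was added after the widths had been seen, and it uses the same values as the one before.

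The higher signal at like width was found on both arms and in both places. The signal is not corrected for the number of copies of a chromosome, and copy number in this line was not tested. The ratio was 1.18 on the p arm and 1.20 on the q arm. Promoter regions stood at 1.18, first of 22 autosomes, with 1.21 on the p arm and 1.18 on the q arm. Distal regions stood at 1.19, also first, with 1.14 on the p arm and 1.23 on the q arm. When regions were matched on GC content in 10 bins as well, the chromosome stood at 1.13, first of 22, with 1.16 on the p arm and 1.11 on the q arm, while distal regions stood at 1.11, behind chromosome 21 with 1.12. With the pericentromere kept, promoter regions stood at 1.18 and were again first, distal regions stood at 1.07, at rank 7, and the chromosome matched on GC content as well stood at 1.03, at rank 8. Of the 31 windows of 2 Mb, 26 had a ratio above 1 and 5 below, from 0.789 in window 32 to 1.78 in window 11, with a median of 1.16.

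The GC content of the regions set the arms apart. At like mean signal and place, the GC content of chromosome 20 was 51.0% against 48.5%, a difference of 2.55 points that ranked 5 of 22, or 1.93 points at rank 6 with the pericentromere kept. The difference was 0.122 points on the p arm and 4.23 points on the q arm. The median GC content of distal regions was 45.2% on the p arm, 50.2% on the q arm and 44.7% on the other autosomes, while that of promoter regions was 63.0%, 63.6% and 62.2%.

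**Figure D2:**
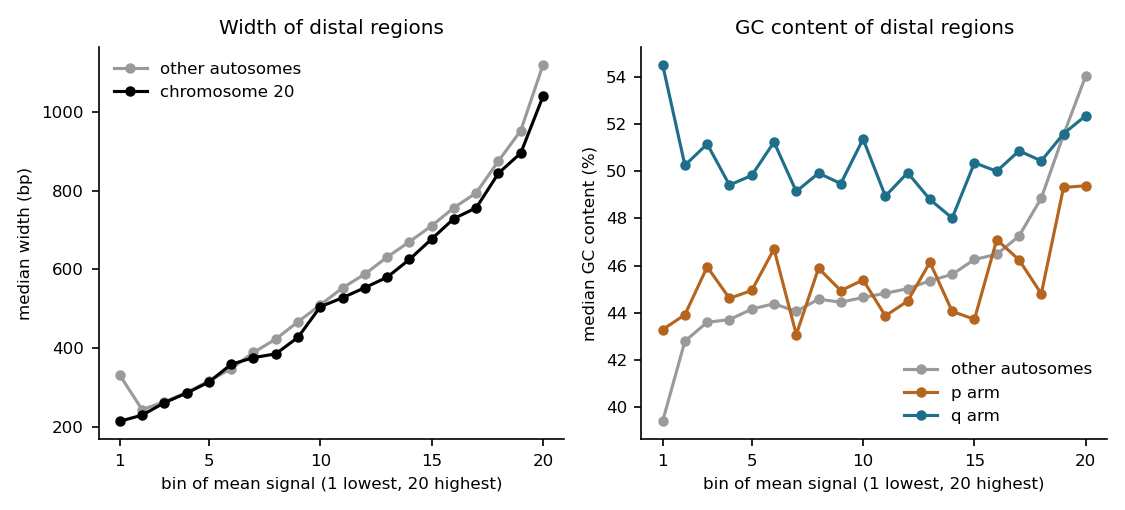
Median width in bp (left) and median GC content in percent (right) of distal regions in 20 bins of mean signal from lowest to highest, for chromosome 20 or its arms and for the other autosomes. The line of chromosome 20 lay at or under that of the other autosomes in width in all bins but 1, and the q arm stood above the p arm in GC content in every bin.

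The q arm was denser in regions and genes than the p arm, and a larger share of its regions were promoters. It had 56.7 regions per Mb against 46.0, a ratio of 1.23, and 10.5 protein-coding genes per Mb against 7.13. Promoter regions made up 20.6% of the q arm (383 of 1862, 95% Wilson interval 18.8 to 22.5%) and 15.8% of the p arm (186 of 1174, 13.9 to 18.0%). The difference was 4.73 points with a Newcombe interval of 1.90 to 7.46, which covers counting error alone and treats neighbouring regions as independent. Genes with a promoter region were about as frequent on both arms, with 147 of 182 (80.8%) on the p arm and 273 of 345 (79.1%) on the q arm.

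Promoter regions of the p arm had the higher median signal, whereas the distal medians of the arms lay closer together. The median promoter signal was 707 on the p arm (quartiles 201 and 1435) and 466 on the q arm (130 and 1232), a ratio of q to p of 0.66. Regions over 1000 made up 39.8% of the promoter regions of the p arm and 30.0% of those of the q arm. Taking for each gene only its strongest promoter region, the medians were 1190 and 905. The ratio rested in part on the end of the q arm, the 2 windows from 62 Mb onwards, where promoter regions are many and weak: without these windows it was 0.85. With start sites of all genes in place of protein-coding ones it was 0.87. Promoter regions were also wider on the p arm, with a median of 1028 bp against 894 bp, and the signal grows with width. With signal per kb the ratio of q to p was 0.79. At like width, the promoter ratio to the other autosomes was 1.21 on the p arm and 1.18 on the q arm. Matched on GC content as well, it was 1.22 and 1.12. The median distal signal was 86.4 on the p arm (quartiles 41.2 and 232) and 94.9 on the q arm (39.4 and 268), a ratio of 1.10.

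**Figure D3:**
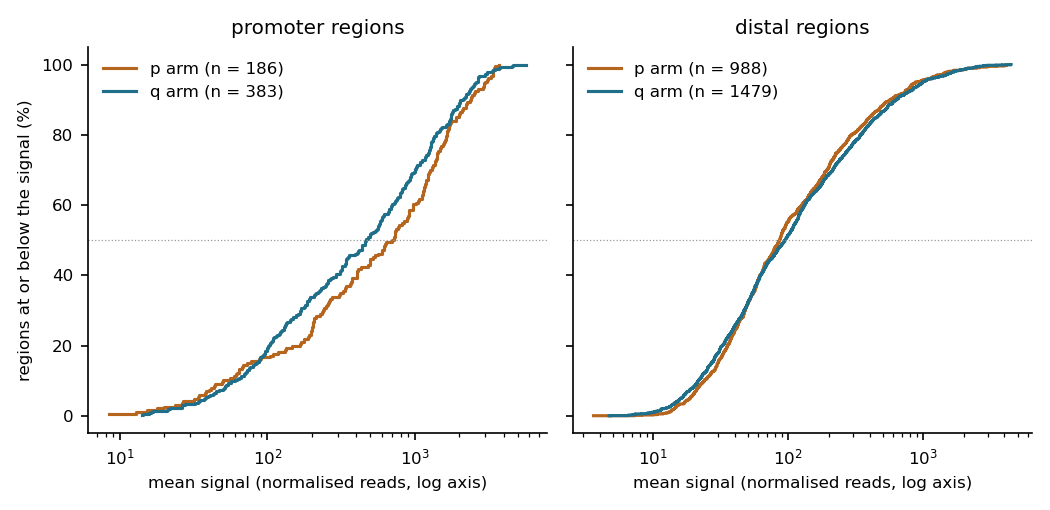
Percent of regions at or below a given mean signal (normalised reads, log axis) for the 186 promoter regions of the p arm and 383 of the q arm (left), and the 988 and 1479 distal regions (right), with a dotted line at the median. The promoter curve of the q arm runs to the left of that of the p arm around the median (466 against 707), and the distal curves nearly coincide (94.9 against 86.4).

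Distal regions were split by what they overlap in the annotation of protein-coding genes, exons before introns. On both arms together 1184 were intergenic (48.0%), 1073 lay in introns (43.5%) and 210 in exons (8.51%), with median signals of 92.6, 83.0 and 120. By distance to the nearest protein-coding start site, 480 were 2 to 10 kb and 936 were 10 to 50 kb away. Another 366 were 50 to 100 kb away and 573 were 100 to 500 kb away. The 112 regions over 500 kb away (4.54%) had a median signal of 115. On the other autosomes, which keep their pericentromeres, such regions made up 13.4% with a median of 27.7, and chromosome 20 with its own pericentromere kept was close to them, with 12.8% and 24.4 (354 of 2758). Of the 112 outside the pericentromere, the q arm held 100, with a median of 131, and the strongest distal region of the chromosome was among them.

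The regions were spread unevenly along both arms. The 2 Mb windows were numbered from the end of the p arm, and 31 of them held members. In the 28 that were whole, the number of regions ran from 27 to 197 with a median of 108.5, against a median of 69 in the windows of the other autosomes, pericentromeres included. The fullest was window 32 (chr20:62000001-64000000, near the end of the q arm) with 197 regions, 73 of them at promoters, a number that 13 of the 1396 other windows (0.931%) reached. This window was picked as the fullest of 28, so the share is no measure of rarity. Its distal regions were nevertheless weak, with a median of 54.2 that ranked 30 of 31. Window 19 with 142 regions and window 17 with 139 came next, both on the q arm at 36 to 38 Mb and 32 to 34 Mb.

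Window 11 (chr20:20000001-22000000, p arm) had the highest median distal signal of the windows. Its 118 distal regions had a median of 162, which 18 of 1285 windows of the other autosomes (1.40%) reached. Window 11 was picked as the highest of 28 whole windows, so this share is no measure of rarity. It held 14 distal regions over 1000, as did window 17 on the q arm, where the median over whole windows was 3. By nearest start site, 34 of the distal regions of window 11 belonged to RALGAPA2, 16 to INSM1, a zinc finger factor of endocrine cells, 16 to KIZ and 13 to NKX2-2. The regions nearest to INSM1 had a median of 431 and the highest of them (chr20:20372641-20374009), 4.54 kb from the start site, had 2036. INSM1 is a neighbour of RALGAPA2, and several regions nearest to INSM1 stood within introns of RALGAPA2, so a region cannot be tied to either gene from its position. The regions nearest to NKX2-2 had a median of 165, and 3 of them exceeded 1000. The 13 regions nearest to PAX1 had a median of 46.7.

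The fewest regions lay near the far end of the q arm. Window 29 (chr20:56000001-58000000) held 27, at a median distal signal of 34.3, the lowest of the chromosome, and window 28 next to it held 36. Window 33 held 28, but it is only the last 0.44 Mb of the chromosome. Of the 20 protein-coding genes of window 29, 9 had a promoter region (45.0%), against 420 of 527 (79.7%) on both arms. The longest stretches without any region were found here and in its neighbourhood, with 440 kb next to PMEPA1 (chr20:57710163-58150382), 437 kb next to PFDN4 (chr20:54208846-54645590) and 380 kb next to FAM209B (chr20:56577928-56957851). The longest on the p arm was 342 kb next to ADRA1D, and the median distance between neighbours was 12.0 kb on the p arm and 9.50 kb on the q arm. AURKA, the mitotic kinase, was an exception in window 29, with a promoter signal of 2695. Its region (chr20:56391764-56392971) reaches beyond the upstream end of the annotated gene, and whether a neighbouring gene shares it was not examined.

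**Figure D4:**
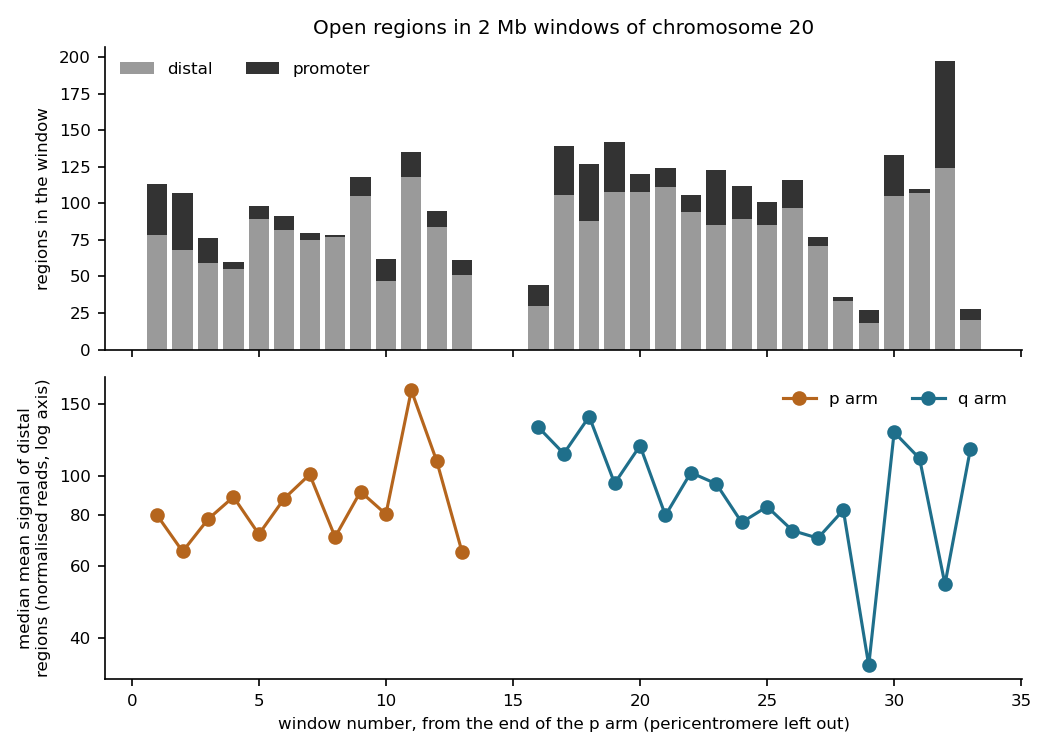
Number of promoter and distal regions (top) and the median mean signal of distal regions in normalised reads on a log axis (bottom) in 2 Mb windows of chromosome 20, numbered from the end of the p arm, the windows at the pericentromere and at the end of the q arm being partial. Window 32 had most regions (197), window 29 fewest (27), and window 11 the highest median distal signal (162).

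The strongest promoter regions belonged mainly to genes of general cell functions. On the q arm they included RALY (5724, the highest member), which encodes an RNA-binding protein, the acetyl-CoA synthetase gene ACSS2 (4546), the polarity gene PARD6B (3769) and the splicing factor gene RBM39 (3753). On the p arm they were SEC23B (3716), of the coat of transport vesicles leaving the endoplasmic reticulum, MACROD2 (3528), GZF1 (3470), MKKS (3417) and the region shared by CDS2 and PCNA (3409). The region of MKKS also overlaps SLX4IP, and in such shared regions the signal cannot be divided between the genes.

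All 5 endocrine transcription factors described had a promoter region, with a median of 1583 for the strongest of each gene, against 987 over the 420 genes with one. Over all 527 protein-coding genes of both arms, 79.7% had a promoter region, so that a full count in a short list is near this background. FOXA2 stood highest with 3014, followed by HNF4A with 2476 and INSM1 with 1583. NKX2-2 and MYT1 had only 405 and 478, at the 27.4th and 30.5th percentile of the 420 genes with a promoter region. Distal regions were plentiful around these genes, counting those within 100 kb for which the gene had the nearest start site: 20 for FOXA2, 16 for INSM1, 13 for NKX2-2, 9 for MYT1 and 7 for HNF4A, with a median of 13 against 2 over all genes. Such a count depends also on how near the start sites of neighbouring genes lie. At NKX2-2 the region 6.86 kb from the start site had about 10 times the signal of the promoter region, 4195 against 405. These regions differed in width, at 2653 bp and 233 bp. The signal grows with the width of a region, so the values do not compare openness per base. At HNF4A the strongest distal region lay in an intron of the gene (1313). The largest numbers of the chromosome belonged to RALGAPA2 with 28, the cadherin gene CDH4 with 26 and TSHZ2 with 23, and FOXA2 was sixth.

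Genes for prohormone processing, granules and exocytosis had a promoter region in 8 of 8 cases, near the 79.7% of all genes, with a median of 1357 against 987. PCSK2, the prohormone convertase that cuts proglucagon and completes proinsulin processing, had 2227 at its promoter, and a region in its intron (chr20:17315166-17316391), 88.1 kb from the nearest start site, had 2478. Chromogranin B (CHGB) had 1905, the syntaxin gene STX16 1920, VAPB 1524, SNAP25, of the fusion machinery of granules, 1190 and NAPB 1130. RAB22A and DNAJC5 were lower with 403 and 323.

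Channels, receptors and signalling genes had weaker promoters than most genes of the chromosome. Of the 8 genes described 7 had a promoter region (87.5%, near the 79.7% of all genes), with a median of 337 against 987. Only 1 of the 7 exceeded 1000 (14.3%, against 49.3% of all genes with a promoter region). It was PTPN1, a phosphatase that acts on the insulin receptor, with 2234. GNAS, the alpha subunit of the stimulatory G protein, had 873 at the strongest of its 7 promoter regions and a distal region of 2790 at 14.5 kb. The potassium channel genes KCNG1 and KCNS1 had 337 and 65.8, and the receptor gene SSTR4 had 34.2. NTSR1, the neurotensin receptor gene, had no promoter region.

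Cell cycle and replication genes had mostly strong promoters and few distal regions. All 14 had a promoter region, near the 79.7% of all genes, with a median of 1400 against 987. Of these, 12 exceeded 1000 (85.7%, against 49.3% of the 420 genes with a promoter region). PCNA, the sliding clamp of DNA replication, stood at 3409 in the region shared with CDS2, and AURKA at 2695, the topoisomerase gene TOP1 at 2159, the spindle factor gene TPX2 at 2009 and UBE2C, of mitotic ubiquitination, at 1946. E2F1 had 1393 and RBL1, a relative of the retinoblastoma protein, 1358. The exceptions were MYBL2 with 550 and CENPB with 377. The region of CENPB (chr20:3786707-3787344) also overlaps CDC25B, so its signal cannot be divided between these genes. Whether a neighbouring gene shares the region of AURKA was not examined. MYBL2 had a distal region of 1484 at 8.79 kb. The median number of distal regions was 0.5 per gene, against 2 over all genes and 13 for the endocrine factors. These counts depend also on the spacing of neighbouring start sites. The values are means over senescent and non-senescent libraries and do not show in which group a promoter was open.

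Survival and stress genes had a promoter region in 6 of 6 cases, again near the background of 79.7%, with a median of 1607 against 987. BCL2L1, which encodes the anti-apoptotic protein BCL-XL, stood at 3392 and had a further region in an intron (1531). TP53INP2 and ID1 had 1887 and 1808, TP53RK 1406 and TRIB3 1174, while BIRC7 had 69.2.

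Interferon and nucleic acid sensing genes were split. ZNFX1 and SAMHD1, the latter a phosphohydrolase that degrades deoxynucleotides, had strong promoters with 2696 and 1760. CD40, a receptor gene of immune cells, had 54.3, although a distal region of 2339 within an intron of CDH22 had CD40 as its nearest start site at 58.2 kb. ZBP1, a sensor of nucleic acids, had no promoter region and 2 weak distal ones, the higher at 34.6.

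BMP, TGF-beta and Notch genes showed a similar contrast. GDF5 and the Notch ligand gene JAG1 had 2568 and 2414, BMP2 500, TGIF2 125 and PMEPA1 16.2, while BMP7 had neither a promoter nor a distal region. The region of GDF5 (chr20:35454430-35455943) covers the upstream end of the annotated gene, and whether a neighbouring gene shares it was not examined. Chromatin genes had a promoter region in 9 of 10 cases with a median of 1125, both near those of all genes, led by ASXL1 (3086), L3MBTL1 (2208), CHD6 (1752) and ZMYND8 (1748). DNMT3B, a de novo DNA methyltransferase, had 760, and CTCFL, the germline relative of CTCF, had no region. BMP7, CTCFL, ZBP1, PMEPA1 and AURKA all lie in window 29.

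**Figure D5:**
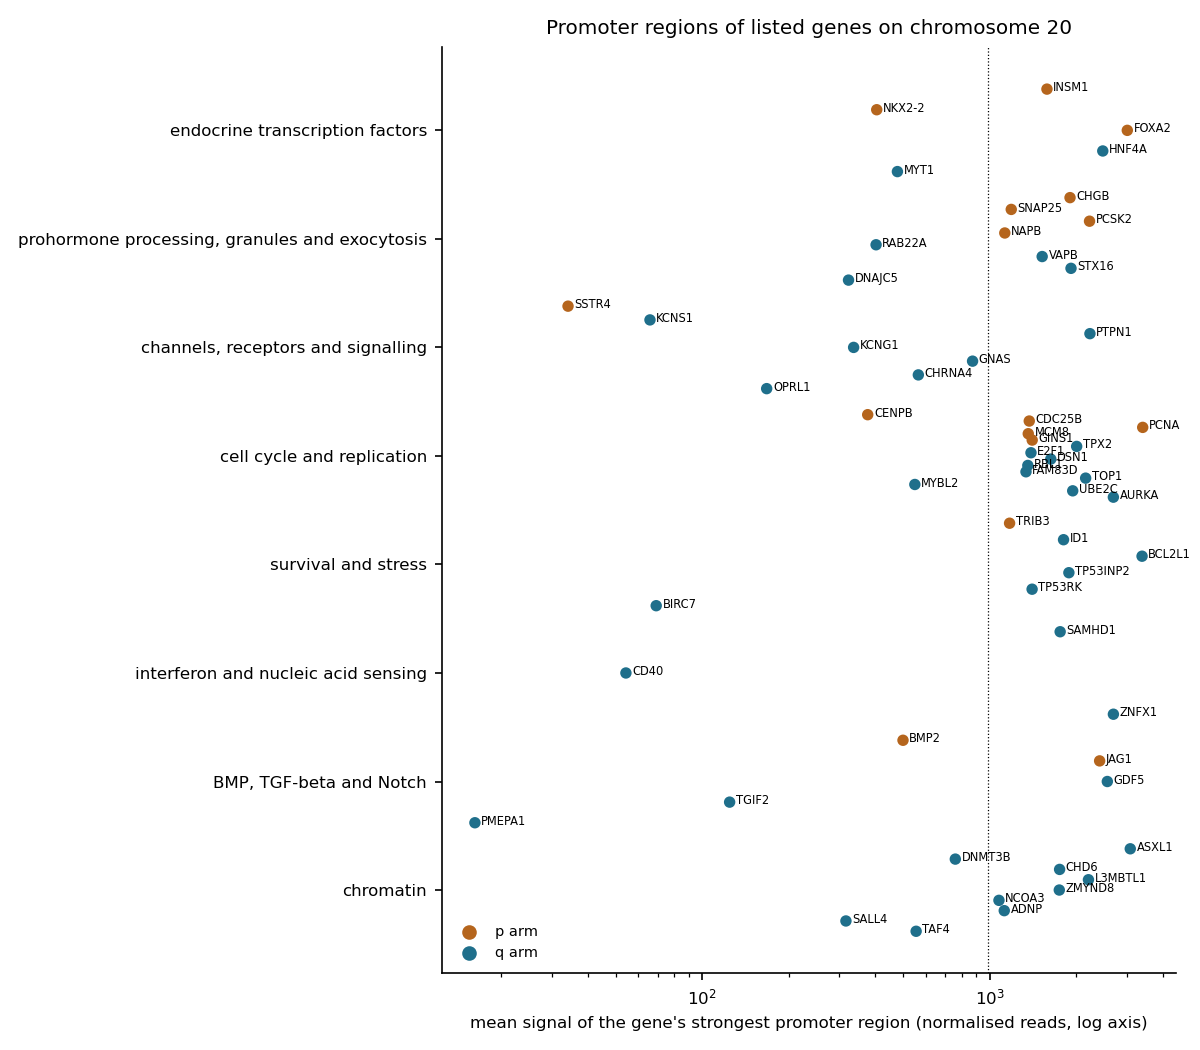
Mean signal of the strongest promoter region (normalised reads, log axis) of each gene described, 1 point per gene with a promoter region, grouped by role and coloured by arm, the dotted line marking the median of 987 over 420 genes. The cell cycle genes cluster above the line with 12 of 14 over 1000, and the channel and receptor genes lie mostly below it, with 1 of 7 over 1000.

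Several gene families of chromosome 20 were mostly without a promoter region, which 79.7% of all genes of the chromosome had. These families were picked after the genes had been seen. The beta-defensins, antimicrobial peptides of epithelia, had one at 1 of 6 genes on the p arm, at 32.0. The cystatins, protease inhibitors, had one at 3 of 11 genes, the highest at 263. The cluster of whey acidic protein domain and Kunitz-type protease inhibitor genes on the q arm had one at 2 of 16 genes, WFDC2 and WFDC3, the higher at 860. Of the zinc finger genes named ZNF with a number 8 of 8 had one, near the share of all genes, with a median of 856. Zinc finger genes with other names, such as INSM1, were not in this count.

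The 9 motifs were sought in promoter and in distal regions, and the shares of both arms together ranked from 1 to 22 among the autosomes. The CTCF letters (AGGGGGCGC) stood in 25 promoter regions, or 4.39%, against 2.44% of the promoter regions of the other autosomes, the highest share of the 22, with 4.30% on the p arm and 4.44% on the q arm. These 25 regions had a median signal of 186, against 558 for the promoter regions without the match, and a GC content of 69.2% against 63.2%. In distal regions the same letters stood in 0.446% against 0.504%. The ETS letters (CCGGAAG) were in 11.2% of the promoter regions against 9.62%, at rank 2, and the regions with them had a median of 1082 against 441 without. In distal regions they were in 2.11% against 1.44%, at rank 3, with 0.607% on the p arm and 3.11% on the q arm. The NRF1 letters (GCGCATGC) stood in 4 distal regions, or 0.162% against 0.357%, the lowest share of the 22. The E-box letters (CAGATGG) were in 15.1% of the distal regions against 13.5%, at rank 2. Homeodomain letters (TAATTA) were in 9.32% of the distal regions against 10.1%, more often on the p arm (10.8%) than on the q arm (8.32%), and distal regions with them had a median of 130 against 86.7 without. Since 18 shares were compared, some ranks near either end are to be expected, and the bases of a motif follow GC content, which differed between the arms.

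The cell line was compared with its label at promoters over the whole genome. All 7 beta cell genes looked up, INS, IAPP, PDX1, NKX6-1, NKX2-2, PCSK1 and SLC30A8, had a promoter region. Taking the strongest of each gene, 4 exceeded the median of 840 over the strongest promoter regions of 15504 genes, and SLC30A8 (559), NKX2-2 (405) and IAPP (183) did not. Of 6 genes of other cells, 5 had one and 1 exceeded the median (the duct gene KRT19, 1059), and the leukocyte gene PTPRC had none. Of the 527 protein-coding genes of both arms of chromosome 20, 79.7% had a promoter region, and the share over the genome is not given here. At the limits of the rule, the promoter region farthest from a start site lay at 1961 bp (nearest to PAX1, signal 177) and the nearest distal one at 2078 bp (ADISSP, 30.3). Next to the pericentromere, the last p arm member (NINL) had 719 and the first region left out (NANP) 134, and on the other side the last region left out (DEFB124) had 13.0 and the first q arm member (HM13) 128.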

How the data were processed

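ATAC-seq was performed in EndoC-βH3 cells, giving 3 senescent and 3 non-senescent libraries, grouped by the sample labels. Per the methods, the authors used Trim Galore for trimming and Bowtie2 for alignment to hg38. Mitochondrial and duplicate reads were discarded and the Tn5 offset was corrected. MACS2 peaks of the libraries were merged, reads over the merged peaks were counted with bedtools, and the authors compared the groups in DESeq2. Versions are not given in the sources used here. Because the merged peaks were counted in every library, a region open in only 1 group also carries a mean over both.

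The signal in the deposited table is the authors' mean over the 6 libraries of counts divided by size factors. It grows with the width of a region and is not corrected for GC content or for the number of copies of a chromosome. The remaining columns hold the fold change, its standard error, the test statistic and p-values of the authors' comparison and were not used. No column holds a single library, so the planned test between groups could not be made and the depth of each library is unknown. 0 columns of single samples were left unused. Starts were read as counted from 0, as in BED files, which the table does not state, and are printed counted from 1.

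GENCODE 44 and hg38 gave genes, places, GC content and sequences. A distal region was assigned to the nearest protein-coding start site, for counts per gene within 100 kb. A region that overlapped an exon of a protein-coding gene was exonic, otherwise one that overlapped such a gene was intronic. Densities are per Mb without unknown bases. Like mean signal and like width used 20 quantile bins, weighted by the numbers on chromosome 20. Motifs were sought in the middle 300 bp. Named genes were 8 lists by role, each gene with its strongest promoter region, besides the 5 strongest promoter and distal regions of each arm and the 3 windows with most and with fewest regions. Some of the listed genes and strongest regions are not reported here, and the listed genes concerned were left out of the counts and medians of their lists. Members, lists and rules were chosen with earlier results of these data known. Alternatives were promoter windows of 1 and 0.5 kb, start sites of all genes, a mean signal of at least 50, the mean of log2(signal + 1), signal per kb, the whole chromosome, the median of the other autosomes, windows of 1 and 5 Mb, and 10 or 50 bins. The functions for ratios to the other autosomes, like mean signal and like width were tested on the real regions with shuffled chromosome names. A known factor or shift was put into the regions then named chromosome 20. The tools were Python 3.11.15, pandas 2.3.3 and numpy 2.4.6.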

Additional observations from a re-analysis of the deposited data

How the results depend on the processing

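Of 59 alternatives over 11 results, 54 moved the value by less than its spread. For signal ratios to the other autosomes, width, GC content and signal at like width the spread was the SD of the same value over the other 21 autosomes. For the ratios between arms it was the SD of the matching ratio to the other autosomes, since no arms were set on those. For the share it was the Newcombe interval, and for densities a factor of 1.5. The ratio of promoter signal of chromosome 20 to the other autosomes rose from 1.02 to 1.20 without the windows from 62 Mb to the end of the q arm, an alternative chosen after seeing the data. The ratio of q to p arm promoter signal of 0.66 was 0.85 without those windows, 0.87 with start sites of all genes and 0.82 with the mean of log2 signals, so the p arm was higher in each but by less. The densest window held 98.5 regions per Mb at 2 Mb and 65.6 at 5 Mb, since a longer window takes in emptier sequence. The width difference of -29.2 bp ran from -35.8 to -20.1 bp and the ratio at like width of 1.18 from 1.10 to 1.23, both of them nearest to no difference with the pericentromere kept. The ratio at like width and the alternatives with the pericentromere for it and for width and GC content were added after seeing the data. Leaving out a library was not run. No paired analysis was possible because single libraries have no column of their own. Depth and the spread between replicates cannot be read from the table, so no value here has a replicate error.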
